A study of Eublepharis macularius with 23 samples.

Results

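The keratin genes of the leopard gecko (Eublepharis macularius) are the rows of the deposited count tables whose gene identifier holds KRT followed by a digit, leaving out keratin-associated proteins, and 36 of the 22064 genes met this rule. RNA was sequenced from the dorsal skin of embryos at day 40, about when melanin first appears there, to compare hypomelanistic morphs with their unaffected relatives. For Hypome 1, a recessive low-melanin trait, there were 2 wild-type (+/+), 3 heterozygous (1 Hypome 1 allele) and 4 homozygous embryos, all offspring of 1 heterozygous pair and gathered over several seasons. For Hypome 3, a second such trait, 3 heterozygous embryos were analysed here. The embryos were not sexed, and the eggs were kept at a temperature that gives mostly females. Each library comes from 1 embryo, so p-values measure the spread between embryos of 1 family.

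Keratins are the intermediate filament proteins of epithelia. Each filament is built from pairs of an acidic type I and a basic type II keratin, and desmosomes and hemidesmosomes anchor the filaments to neighbouring cells and to the basement membrane. In mammalian skin the basal layer makes KRT5 and KRT14, the layers above it KRT1 and KRT10, and simple epithelia and the embryonic periderm KRT8, KRT18 and KRT19. The embryonic epidermis of lizards forms temporary outer layers that are shed at hatching, above the layers of the first mature skin. Gecko genes carry the name of the most similar keratin of other species ("-like"), so the roles below belong to mammalian keratins of that number and need not hold for the gecko gene.

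Sequencing depth was 32455975 to 52017277 counts per library in Hypome 1 and 16826633 to 21208295 in Hypome 3. Of 13 epithelial markers other than keratins, 11 were found and none was at 0 in any library. Their summed level was 1008 CPM (counts scaled to a common library size, with edgeR's TMM factors) in heterozygous replicate 2 and 1323 to 1611 CPM in the other 8 Hypome 1 libraries. The CPM of Hypome 3 libraries carry no TMM factors. Skeletal muscle markers ranged from 7.31 to 4291 CPM between libraries, with the lowest and the highest sums both in the homozygous group. Heterozygous replicate 2 stood apart in its keratins, as described below. Homozygous against heterozygous values are also given without it for some keratins, but not for group medians or the other gene lists. In bulk skin, fewer cells of a type and less RNA per cell cannot be told apart.

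The keratin genes lie in clusters in the authors' assembly. On Scaffold 12, from 39014544 to 39576474, 16 type I genes and KRT222, an unpaired keratin-related gene, follow each other on the minus strand with no other gene between them. On Scaffold 19, from 2653926 to 3083585, 16 type II genes lie with 4 other genes among them. KRT18 (type I) and KRT8 (type II) are neighbours on Scaffold 19, from 10363453 to 10479271, and the KRT18-like gene LOC129324489 lies alone on Scaffold 2. In all there are 18 type I genes, 17 type II genes and KRT222. No keratin gene overlapped another gene, but they are near relatives. The paper states that uniquely mapped pairs were counted, which would leave out reads shared between copies. How some of the deposited counts were made is not known, as described below, so whether such reads are missing from these values was not tested.

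Keratins took a few percent of all gene counts. The share was 2.84% and 2.36% in the wild-type libraries, 2.46%, 1.44% and 2.87% in the heterozygous libraries, and 2.85%, 3.03%, 2.62% and 2.97% in the homozygous libraries. In the Hypome 3 heterozygous libraries it was 1.55%, 1.90% and 2.96%. Homozygous and wild-type shares overlapped, with means of 2.87% ± 0.183 (SD, n = 4) and 2.60% ± 0.336 (SD, n = 2), a difference of 0.267 percentage points. Without wild-type replicate 2 that difference was 0.0292 points. Against the heterozygous mean of 2.26% ± 0.735 (SD, n = 3) the homozygous mean was 0.610 points higher, and 0.202 points higher without heterozygous replicate 2.

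**Figure D1:**
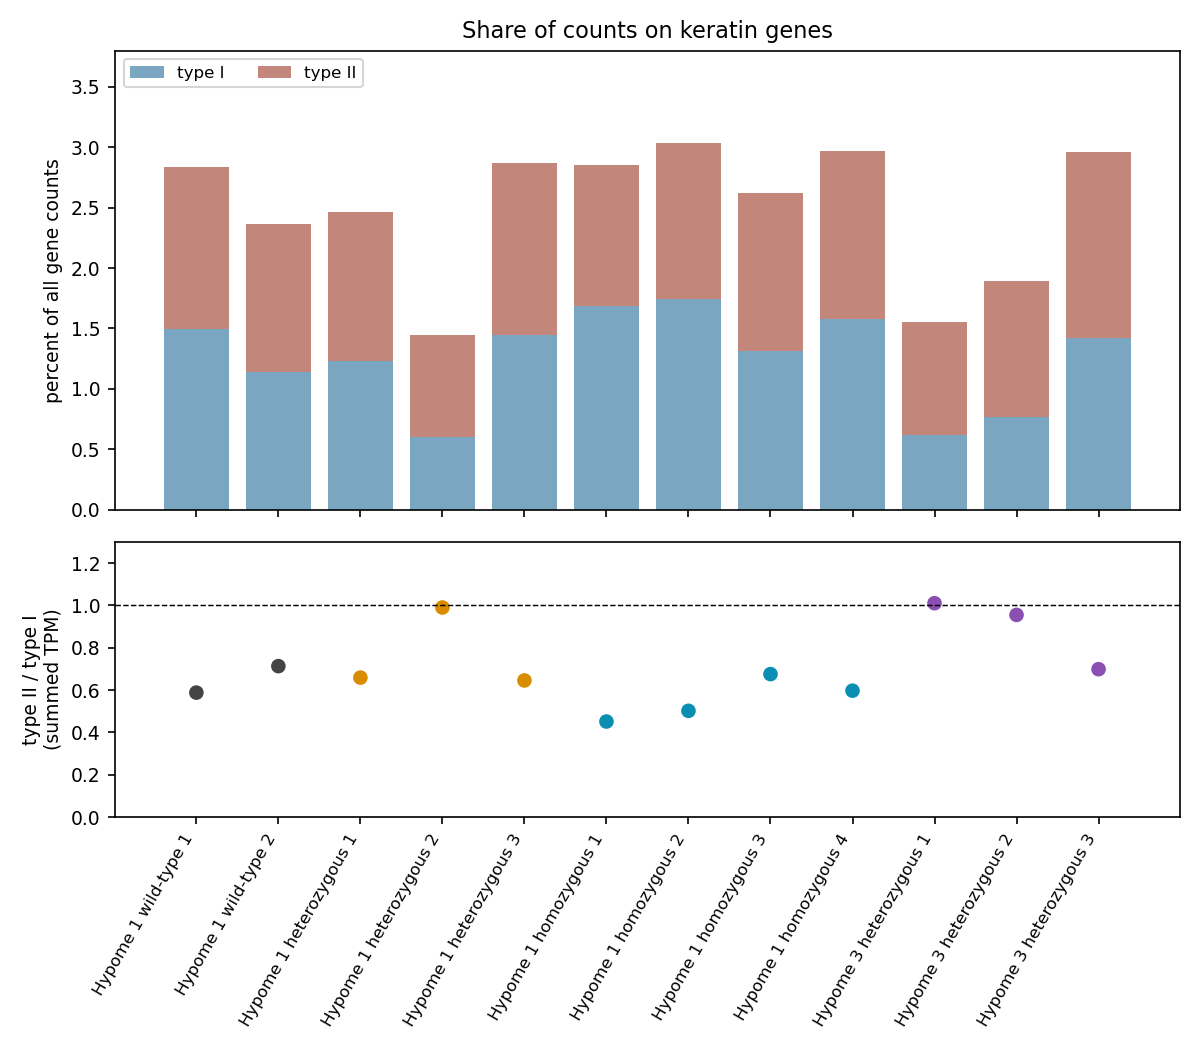
Upper panel: percent of all gene counts on type I and type II keratin genes in each of the 12 libraries; lower panel: summed TPM of type II over type I keratins. Heterozygous replicate 2 and Hypome 3 heterozygous replicates 1 and 2 have the lowest shares (1.44% to 1.90%) and the highest ratios (0.955 to 1.01).

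Per gene length, on the TPM scale (counts divided by gene length and scaled to the same total in every library), type I keratins exceeded type II in 11 of 12 libraries. The ratio of summed type II to type I TPM was 0.588 and 0.713 in wild-type, 0.659, 0.990 and 0.646 in heterozygous, and 0.452, 0.502, 0.676 and 0.597 in homozygous Hypome 1 libraries. In the Hypome 3 heterozygous libraries it was 1.01, 0.955 and 0.699. The 3 libraries near 1 were those with the lowest keratin share, and all 3 carry the first of the 3 collection years. The fourth library of that year, Hypome 1 heterozygous replicate 1, had a ratio of 0.659, within the range of the other libraries.

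A few genes made up most of the keratin RNA. The 8 most abundant held 82.4% to 91.8% of the keratin TPM of each Hypome 1 library. The KRT24-like gene LOC129338255 (Scaffold 12, 39068044 to 39079184) had the highest keratin TPM in all 12 libraries, with a mean of 6732 TPM in Hypome 1 and a range from 5446 to 8254 TPM. It was followed in mean TPM by the type II genes KRT6A-like LOC129346181 (3230 TPM) and KRT4-like LOC129346183 (2832 TPM). In mammals KRT6A is a keratin of wounds, nails and hair sheaths, and KRT4 one of the mucosal lining of the mouth and oesophagus. Next came KRT19-like LOC129338574 (2761 TPM), KRT6A-like LOC129346176 (1666 TPM), KRT19-like LOC129338458 (1545 TPM), KRT24-like LOC129338336 (1540 TPM) and KRT12-like LOC129338353 (1119 TPM). KRT10-like LOC129339097, KRT5-like LOC129346180, KRT7-like LOC129346416 and KRT73-like LOC129346414 had means of 639, 486, 450 and 411 TPM. KRT73 belongs to the inner root sheath of mammalian hair, a structure that geckos lack.

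At the other end, 16 of the 36 genes averaged under 10 TPM. Among them, 5 did not pass edgeR's filter on low counts and were not tested: KRT36-like LOC129339095, KRT85-like LOC129346420, KRT5-like LOC129345932, and KRT6B-like LOC129346411 and LOC129346419. No Hypome 1 library had more than 19 counts on any of these 5. KRT36 and KRT85 are hair and nail keratins in mammals.

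**Figure D2:**
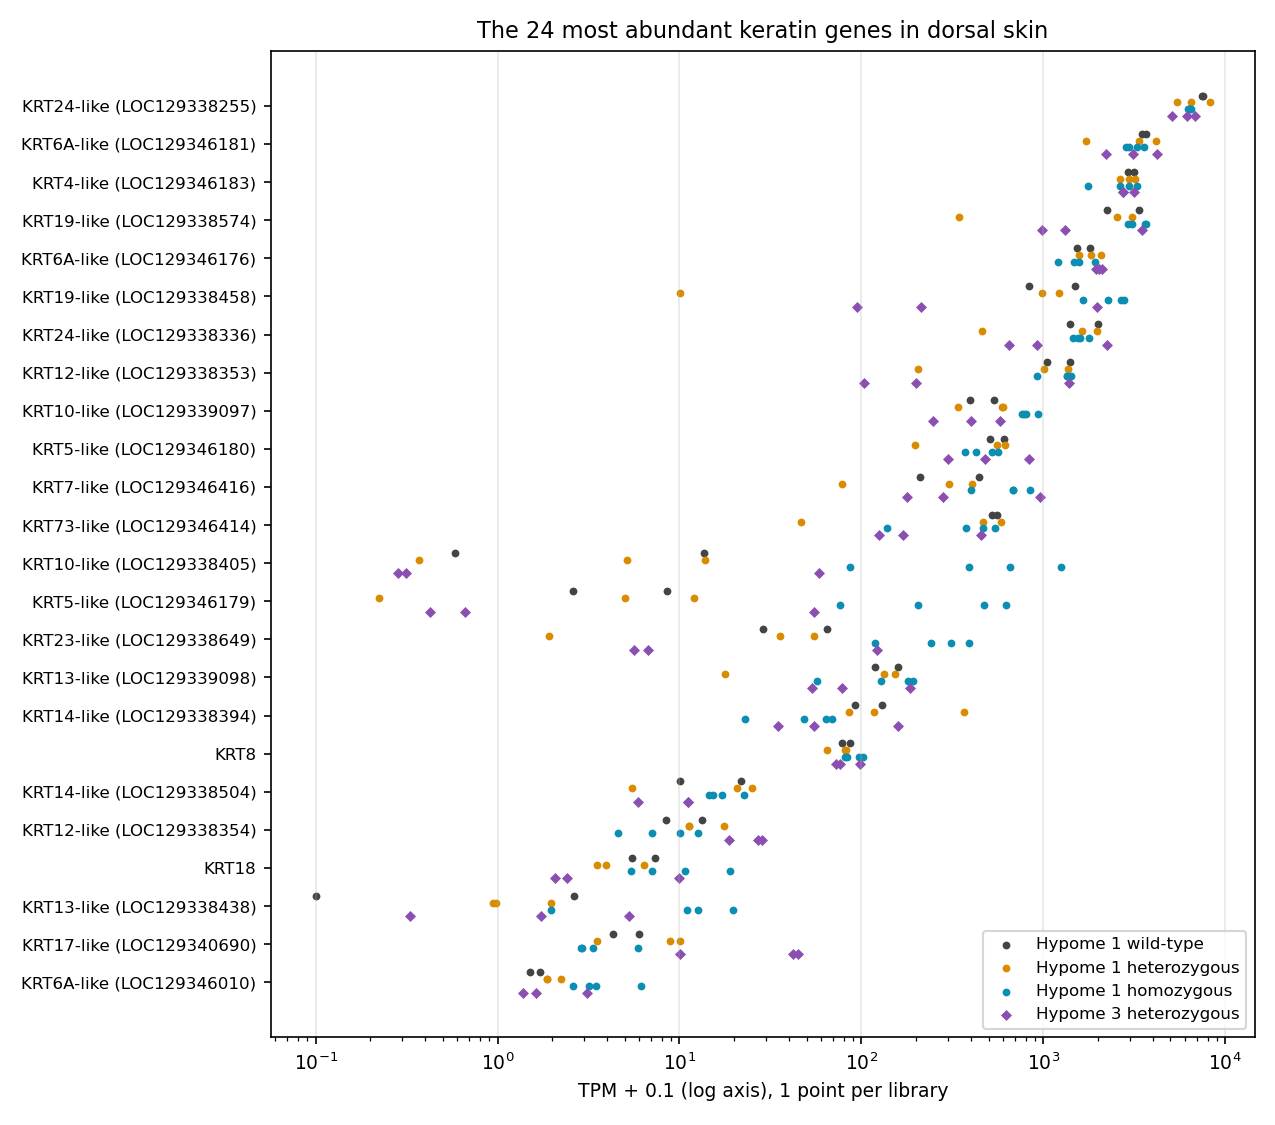
TPM + 0.1 (log axis) of the 24 keratin genes with the highest mean TPM in Hypome 1, with 1 point per library, coloured by group. KRT24-like LOC129338255 at the top stays between 5446 and 8254 TPM in Hypome 1, while KRT10-like LOC129338405 and KRT5-like LOC129346179 spread over several orders of magnitude.

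The genes differed widely in how much they varied between the 9 Hypome 1 libraries. The highest CPM was under 2 times the lowest for KRT24-like LOC129338255, KRT4-like LOC129346183, KRT6A-like LOC129346176 and KRT8. It was over 100 times the lowest for KRT10-like LOC129338405, KRT5-like LOC129346179, KRT23-like LOC129338649 and KRT19-like LOC129338458. No ratio could be had for 3 genes with a library at 0: KRT222, KRT13-like LOC129338438 and KRT1-like LOC129346418. KRT19-like LOC129338458 owes its range to heterozygous replicate 2, at 7.41 CPM against 654 to 2884 CPM in the other 8 libraries.

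Homozygous and wild-type embryos were compared to find what the full morph changes in the skin. The largest differences among the 31 tested keratins were in KRT10-like LOC129338405 and KRT5-like LOC129346179, 2 genes of low level in wild-type skin that were higher in every homozygous library. LOC129338405 (type I, Scaffold 12, 39334864 to 39344828) measured 14.2 and 0.479 CPM in wild-type and 1998, 495, 89.7 and 742 CPM in homozygous libraries. The heterozygous libraries had 5.41, 0.251 and 14.1 CPM. The lowest homozygous library was thus 6.32 times the highest of the other 5, and the homozygous libraries spread 22-fold among themselves. Its log2 fold change from wild-type was 6.83 (SE 2.03), with an adjusted p of 0.444 in edgeR and 0.00142 in DESeq2 fitted to only these 6 libraries.

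LOC129346179 (type II, Scaffold 19, 2677318 to 2691352) had 11.5 and 3.22 CPM in wild-type, 6.84, 0.151 and 15.9 CPM in heterozygous, and 1295, 338, 102 and 692 CPM in homozygous libraries. All 4 homozygous libraries were again above the other 5, the lowest of them 6.43 times the highest other. The log2 fold change from wild-type was 6.37 (SE 1.70, edgeR adjusted p = 0.416, DESeq2 adjusted p = 1.36e-06). A type I and a type II gene, on different scaffolds, therefore had the same order of the 4 homozygous libraries, with replicate 1 highest, then 4, 2 and 3.

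Another 2 type I genes of the Scaffold 12 cluster had this order in the homozygous libraries. KRT8, the abundant KRT6A-like LOC129346181 and the rare KRT4-like LOC129346182 also had it in CPM, over a smaller range, but not in TPM. The TMM factor of homozygous replicate 1 was 0.780, against 0.963 to 1.015 in the other homozygous libraries. KRT23-like LOC129338649 (39169589 to 39194793) had 49.5 and 20.7 CPM in wild-type, 27.9, 1.23 and 41.3 CPM in heterozygous, and 454, 224, 90.1 and 256 CPM in homozygous libraries, with no overlap. Its log2 fold change from wild-type was 2.87 (SE 1.12, edgeR adjusted p = 0.520, DESeq2 adjusted p = 0.00788). KRT13-like LOC129338438 (39374514 to 39391790), named after the mucosal partner of KRT4, was much rarer, at 2.45 and 0 CPM in wild-type, 0.883, 0.728 and 1.78 CPM in heterozygous, and 28.9, 12.8, 1.80 and 13.1 CPM in homozygous libraries. Homozygous replicate 3 lay under wild-type replicate 1, so these groups overlapped, and the log2 fold change of 3.56 (SE 1.36) had an adjusted p of 0.514 in edgeR and 0.563 in DESeq2. Without wild-type replicate 1 the other wild-type library is at 0 counts, and DESeq2 then called the gene (adjusted p = 0.000699) with a fitted fold change that has no defined size.

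KRT10-like LOC129338405, KRT5-like LOC129346179, KRT23-like LOC129338649 and KRT13-like LOC129338438 were grouped after their values were seen. A higher sum in homozygous libraries, largest in replicate 1, follows from that choice and is no further result. Together these 4 genes held 0.296% and 0.109% of the keratin counts in wild-type and 0.174%, 0.0177% and 0.266% in heterozygous libraries. In homozygous libraries they held 10.3%, 3.39%, 1.10% and 5.58%. In homozygous replicate 1, KRT10-like LOC129338405 had 1255 TPM, against 1761 TPM for the abundant KRT4-like LOC129346183. The TPM of KRT5-like LOC129346179 was 0.498 to 0.877 times that of KRT10-like LOC129338405 in the 4 homozygous libraries, while the TPM of the latter spread 14.5-fold and that of the former 8.23-fold among them. This ratio was 0.623 and 5.16 in wild-type and 0.971, 0.461 and 0.867 in heterozygous libraries. In the Hypome 3 heterozygous libraries it was 3.07, 1.54 and 0.938. Ratios in the homozygous range were thus not particular to homozygous libraries.

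Collection year and RNA integrity were read from the study's sample list, joined by replicate number. Of the Hypome 1 libraries, heterozygous replicates 1 and 2 were from the first year; wild-type replicate 2 and homozygous replicates 1 and 4 from the second; and the rest from the third. Within the second year, KRT10-like LOC129338405 was at 0.479 CPM in the wild-type and 1998 and 742 CPM in the homozygous libraries. Within the third it was at 14.2 CPM in the wild-type, 14.1 CPM in the heterozygous, and 495 and 89.7 CPM in the homozygous libraries. For KRT5-like LOC129346179 the second year gave 3.22 against 1295 and 692 CPM, and the third 11.5 and 15.9 against 338 and 102 CPM. Every homozygous library was above all other Hypome 1 libraries for both genes. Higher homozygous values within each year therefore follow from that order and are no further result. Homozygous replicates 1 and 4, the highest for these genes, also had the lowest RNA integrity, and without them the log2 fold change from wild-type was 5.34 for LOC129338405 and 4.92 for LOC129346179. That these values stay positive follows from the same order.

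**Figure D3:**
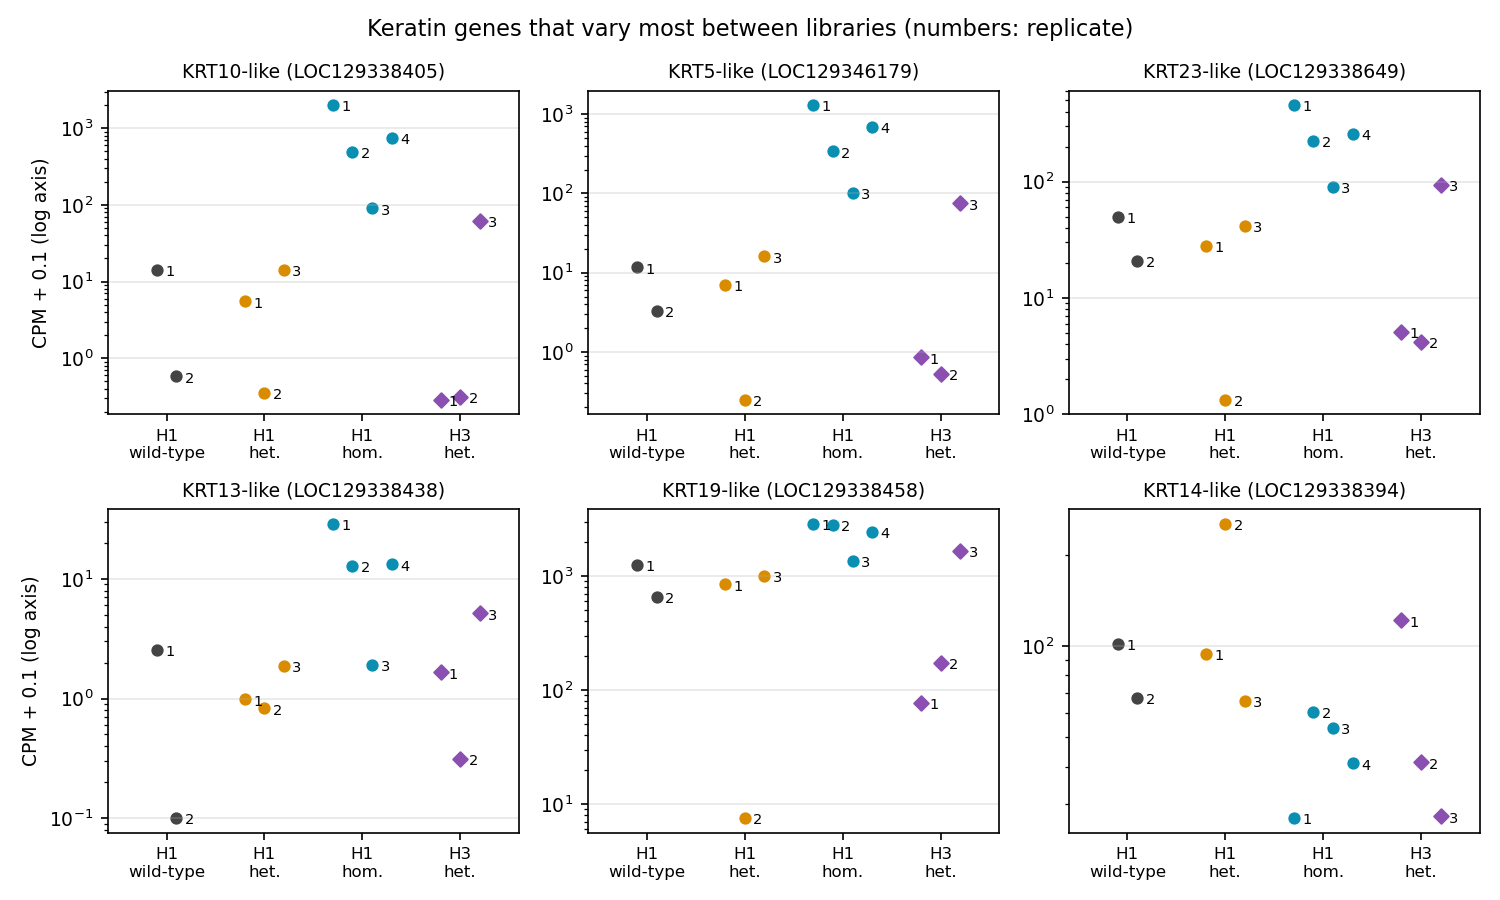
CPM + 0.1 (log axis) of 6 keratin genes in each library by group, with the replicate number beside each point; H1 and H3 are Hypome 1 and Hypome 3, het. heterozygous and hom. homozygous. The 6 genes were picked by hand and are not strictly those of widest range. KRT14-like LOC129338394 spread 9.40-fold in CPM over the Hypome 1 libraries, less than KRT19-like LOC129338574 (14.6-fold), which is not shown. In KRT10-like LOC129338405 and KRT5-like LOC129346179 the lowest homozygous library lies 6.32 and 6.43 times above the highest other Hypome 1 library, and Hypome 3 heterozygous replicate 3 lies far above replicates 1 and 2.

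More abundant keratins differed less. KRT10-like LOC129339097 (Scaffold 12, 39257984 to 39296866), the second of the KRT10-like genes, had 790 and 554 CPM in wild-type, 907, 447 and 860 CPM in heterozygous, and 1803, 1684, 1117 and 1255 CPM in homozygous libraries. All homozygous libraries were above the other 5. The log2 fold change from wild-type was 1.12 (SE 0.32), with an adjusted p of 0.438 in edgeR and 0.000624 in DESeq2.

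Among simple-epithelium keratins, KRT19-like LOC129338458 (Scaffold 12, 39469187 to 39482600) measured 1248 and 654 CPM in wild-type and 2884, 2803, 1364 and 2436 CPM in homozygous libraries. The groups did not overlap, although homozygous replicate 3 was close to wild-type replicate 1. The log2 fold change was 1.32 (SE 1.18, edgeR adjusted p = 0.798, DESeq2 adjusted p = 0.00347). DESeq2 on all 9 libraries, which like the edgeR fit includes heterozygous replicate 2, gave an adjusted p of 0.832. The second KRT19-like gene, LOC129338574, had a log2 fold change of 0.54 (SE 0.66) and overlapping groups. KRT7-like LOC129346416 (Scaffold 19, 2858754 to 2870840) had 424 and 189 CPM in wild-type and 580, 794, 646 and 869 CPM in homozygous libraries. It too did not overlap on this scale, but in TPM homozygous replicate 1, at 399 TPM, lay under wild-type replicate 1, at 444 TPM. Its log2 fold change of 1.24 (SE 0.59) had an adjusted p of 0.598 in edgeR and 0.00295 in DESeq2.

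KRT6A-like LOC129346010 (Scaffold 19, 2981209 to 2995324), the rarest of the 3 KRT6A-like genes, had the smallest edgeR p of the keratins in this comparison. It was at 1.45 and 1.57 CPM in wild-type, 1.88, 1.96 and 1.81 CPM in heterozygous, and 3.95, 4.27, 3.16 and 6.75 CPM in homozygous libraries. The values were close within wild-type and heterozygous groups and higher in all 4 homozygous libraries, with a log2 fold change of 1.59 (SE 0.35, edgeR adjusted p = 0.320, DESeq2 adjusted p = 0.00491). The abundant KRT6A-like genes LOC129346181 and LOC129346176 had log2 fold changes of 0.12 (SE 0.32) and 0.17 (SE 0.14).

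In all, edgeR called 0 of the 31 tested keratins between homozygous and wild-type libraries, where 0.0119% of all genes were called higher and 0.00597% lower. At an unadjusted p under 0.05 it gave 8 higher keratins, against 4.97% of all genes, and 0 lower, against 3.56%. DESeq2 on only the groups compared called 7 of 29 keratins higher, against 2.13% of all genes, and 0 lower, against 0.532%. Without wild-type replicate 2 it called 2 higher, KRT10-like LOC129338405 and KRT5-like LOC129346179, against 0.569% of all genes. Of the other 5 calls, KRT19-like LOC129338458 was also lost without homozygous replicate 1 or 2, KRT23-like LOC129338649 without homozygous replicate 4 and KRT6A-like LOC129346010 without wild-type replicate 1. DESeq2 on all 9 libraries called 4 higher (0.990% of all genes) and 0 lower: these 2, KRT10-like LOC129339097 and KRT6A-like LOC129346010. Groups did not overlap for 11 higher keratins, against 9.94% of all genes, and 2 lower, against 9.52%. Leaving out the TMM factors moved the median log2 difference of all genes to -0.21, and 7 keratins were then higher without overlap, against 4.33% of all genes, and 3 lower, against 21.0%. With the collection year as a factor, edgeR gave 6 higher keratins at an unadjusted p under 0.05 (4.36% of all genes) and 2 lower (2.94%), the latter being KRT19-like LOC129338648 (-1.58) and KRT14-like LOC129338394 (-0.91). The log2 fold change was above 0 for 25 of 31 keratins and 51.8% of all genes, with medians of 0.31 and 0.01. With 2 libraries against 4, an exact permutation test cannot give a p under 0.0667. KRT10-like LOC129338405 and KRT5-like LOC129346179 were at this lowest value, as were KRT23-like LOC129338649, KRT10-like LOC129339097, KRT19-like LOC129338458, KRT7-like LOC129346416, KRT6A-like LOC129346176 and LOC129346010, and KRT8.

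The 2 keratins lower in every homozygous library than in both wild-type libraries were KRT19-like LOC129338648, at 0.204 to 0.887 CPM against 1.22 CPM in both wild-type libraries, and KRT14-like LOC129338394. Both were named after their values were seen, and LOC129338394 is described below. KRT18-like LOC129324489 had 0.967 and 0.827 CPM in wild-type and 3.34, 2.66, 0.831 and 1.46 CPM in homozygous libraries, so the groups overlapped (log2 fold change 1.20, SE 0.54, edgeR adjusted p = 0.581).

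**Figure D4:**
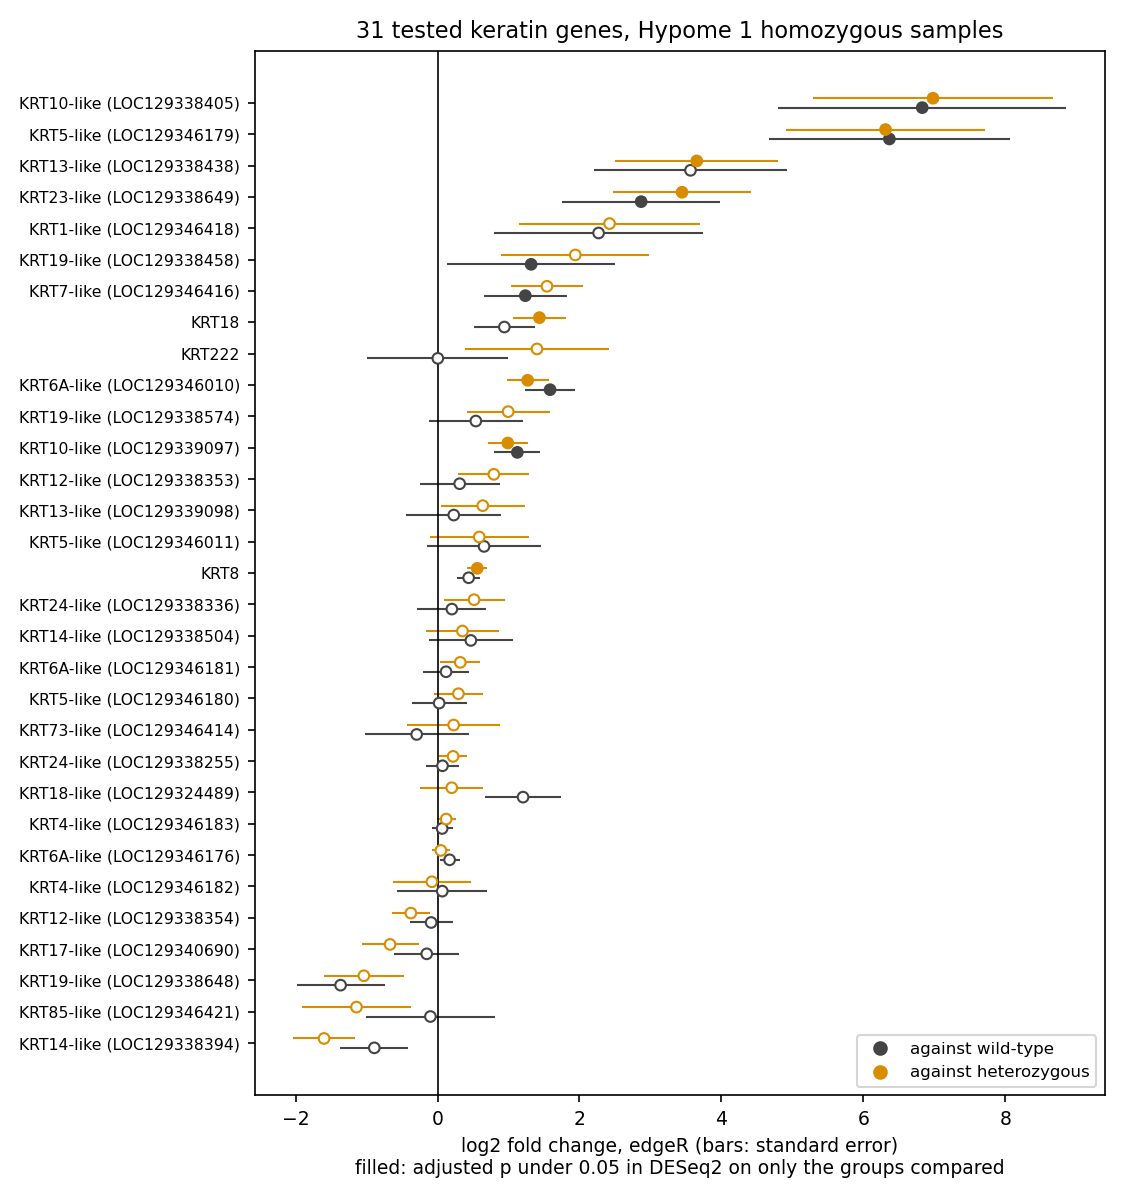
Log2 fold change (edgeR, bars: standard error) of the 31 tested keratin genes in homozygous Hypome 1 libraries against wild-type and against heterozygous libraries, sorted by the latter. Filled points had an adjusted p under 0.05 in DESeq2 on only the groups compared, 7 against wild-type and 8 against heterozygous, and 25 of 31 values lie above 0 in each comparison.

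Homozygous and heterozygous embryos were compared to find what the second Hypome 1 allele adds. This comparison shares its homozygous libraries with the one above. The same rare genes had the largest values: the log2 fold change was 6.98 (SE 1.69) for KRT10-like LOC129338405 and 6.31 (SE 1.40) for KRT5-like LOC129346179, with edgeR adjusted p of 0.104 and 0.0917. It was 3.45 (SE 0.97) for KRT23-like LOC129338649 and 3.65 (SE 1.15) for KRT13-like LOC129338438, with edgeR adjusted p of 0.122 and 0.150. DESeq2 on only these 7 libraries gave adjusted p of 3e-05, 0.000277, 0.0259 and 0.00192 in the same order. KRT10-like LOC129339097 and KRT6A-like LOC129346010 had log2 fold changes of 0.99 (SE 0.28) and 1.27 (SE 0.29), with DESeq2 adjusted p of 0.00665 and 0.00392. KRT13-like LOC129338438 was not called by DESeq2 on all 9 libraries (adjusted p = 0.0951). Its homozygous replicate 3, at 1.80 CPM, was barely above heterozygous replicate 3, at 1.78 CPM, and as a plain share of counts it lay below.

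KRT8 and KRT18, which pair with each other in simple epithelia of mammals, were both higher in CPM in all 4 homozygous than in all 5 other Hypome 1 libraries, an order that did not hold in TPM. KRT8 (Scaffold 19, 10455345 to 10479271) measured 141 and 121 CPM in wild-type, 109, 118 and 133 CPM in heterozygous, and 207, 161, 158 and 182 CPM in homozygous libraries. KRT18 (Scaffold 19, 10363453 to 10377290) measured 5.29 and 3.70 CPM, 2.87, 2.21 and 4.50 CPM, and 5.93, 9.42, 13.7 and 5.48 CPM. Replicate 1 was the highest homozygous library for KRT8 and replicate 3 for KRT18, and KRT18 in homozygous replicate 4 was close to wild-type replicate 1. In TPM, KRT8 ranged from 64.86 to 86.04 in the other 5 and from 80.95 to 102 in the homozygous libraries, and KRT18 from 3.40 to 7.26 and from 5.33 to 18.9, so both overlapped. Against heterozygous libraries the log2 fold change was 0.56 (SE 0.14) for KRT8 and 1.44 (SE 0.38) for KRT18, both with an edgeR adjusted p of 0.111, and the DESeq2 adjusted p were 0.0112 and 0.00526. Without heterozygous replicate 2 neither was called by DESeq2 (0.54, adjusted p = 0.0732, and 1.23, adjusted p = 0.0690), and KRT8 was also lost without heterozygous replicate 1 (adjusted p = 0.119) or homozygous replicate 4 (adjusted p = 0.0776). Against wild-type libraries they were 0.44 (SE 0.16) and 0.94 (SE 0.43), with edgeR adjusted p of 0.501 and 0.585.

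KRT14-like LOC129338394 (Scaffold 12, 39516174 to 39525022), named after the type I keratin of the mammalian basal layer, had the opposite direction. It was at 101 and 67.4 CPM in wild-type, 94.2, 253 and 65.8 CPM in heterozygous, and 26.9, 60.4, 53.5 and 40.9 CPM in homozygous libraries. All homozygous libraries were below the other 5, and heterozygous replicate 2 was far above every other library. The log2 fold change against heterozygous libraries was -1.60 (SE 0.43), with an adjusted p of 0.114 in edgeR, 0.0722 in DESeq2 on the 7 libraries and 0.048 in DESeq2 on all 9. Without heterozygous replicate 2 it was -0.82 in edgeR (adjusted p = 0.379), and with the collection year as a factor -0.23. DESeq2 called it without heterozygous replicate 1 or 3 (adjusted p of 0.00426 and 6.85e-05). Against wild-type it was -0.89 (SE 0.48, edgeR adjusted p = 0.654).

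KRT7-like LOC129346416 had 298, 66.1 and 380 CPM in heterozygous libraries, below all 4 homozygous values (log2 fold change 1.54, SE 0.51, edgeR adjusted p = 0.164, DESeq2 adjusted p = 0.0938). DESeq2 called it without heterozygous replicate 2 (1.09, adjusted p = 4.68e-05) and without heterozygous replicate 3 (1.99, adjusted p = 0.000267). For KRT19-like LOC129338458, heterozygous libraries had 846, 7.41 and 1000 CPM, and the log2 fold change of 1.94 (SE 1.04) had an adjusted p of 0.353 in edgeR. It too was called by DESeq2 without heterozygous replicate 2 (1.36, adjusted p = 0.000141). The abundant KRT24-like LOC129338255, KRT4-like LOC129346183 and KRT6A-like LOC129346176 had log2 fold changes of 0.22 (SE 0.20), 0.12 (SE 0.13) and 0.05 (SE 0.12), with overlapping groups.

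Here edgeR again called 0 of 31 keratins, where it called 0.0239% of all genes higher and 0.0119% lower. Without homozygous replicate 3 it called 1 higher, KRT5-like LOC129346179, against 1.35% of all genes. At an unadjusted p under 0.05 edgeR gave 9 higher keratins, against 9.70% of all genes, and 1 lower, against 8.13%. DESeq2 on only the groups compared called 8 of 28 higher, against 4.31% of all genes, and 0 lower, against 2.25%. Without heterozygous replicate 2 it also called 8 higher, against 2.51% of all genes, with KRT19-like LOC129338458 and KRT7-like LOC129346416 in place of KRT8 and KRT18. The log2 fold changes of KRT10-like LOC129338405, KRT5-like LOC129346179 and KRT23-like LOC129338649 were then 6.41, 5.73 and 2.88. Of the 8 calls, KRT23-like LOC129338649 was lost without heterozygous replicate 1 or homozygous replicate 1, 2 or 4, and KRT10-like LOC129339097 without homozygous replicate 2. DESeq2 on all 9 libraries called 7 higher (4.61% of all genes) and 1 lower (2.50%). Groups did not overlap for 10 higher keratins, against 8.93% of all genes, and 2 lower, against 8.23%, which were KRT14-like LOC129338394 and KRT85-like LOC129346421. In counts, LOC129346421 had 11 and 1 in wild-type, 16, 11 and 16 in heterozygous, and 5, 4, 6 and 7 in homozygous libraries. No homozygous library reached the filter's minimum count of 10, so this gene passed through other libraries and its order is no support for a difference. Without TMM factors, where the median log2 difference of all genes was -0.20, 8 keratins were higher without overlap, against 4.59% of all genes, and 2 lower, against 15.6%. The log2 fold change was above 0 for 25 of 31 keratins and 49.6% of all genes, with medians of 0.56 and -0.00.

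With the collection year as a factor in edgeR, 1 keratin, KRT18, had an unadjusted p under 0.05 in this comparison (log2 fold change 1.28, unadjusted p = 0.00935), against 1.95% of all genes that were higher. None was lower, against 2.05% of all genes. The log2 fold changes of KRT10-like LOC129338405 and KRT5-like LOC129346179 were then 5.29 and 4.46, with unadjusted p of 0.0954 and 0.0734. Since 2 of the 3 heterozygous libraries are from a year without homozygous libraries, year and genotype cannot be fully told apart here.

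Heterozygous and wild-type embryos were compared to see whether 1 allele is enough. No keratin was called by edgeR (0% of all genes in both directions), 0 of 31 had an unadjusted p under 0.05 (0.878% of all genes higher and 0.657% lower), and DESeq2 called 0 on either set of libraries (on the groups compared, 0.0103% of all genes higher and 0% lower). A term for collection year left the edgeR count at 0 at an unadjusted p under 0.05, against 1.18% of all genes higher and 0.716% lower. Log2 fold changes were above 0 for 12 of 31 keratins and 51.0% of all genes. The 5 smallest edgeR p belonged to KRT18-like LOC129324489, KRT14-like LOC129338394, KRT222, KRT18 and KRT85-like LOC129346421, all with an edgeR adjusted p of 1. KRT18-like LOC129324489 had 0.967 and 0.827 CPM in wild-type and 1.78, 1.73 and 1.89 CPM in heterozygous libraries, a log2 fold change of 1.01 (SE 0.55). It and KRT6A-like LOC129346010 were the 2 keratins higher in all heterozygous than in both wild-type libraries, against 6.90% of all genes, and 0 were lower, against 6.02%. KRT14-like LOC129338394 had a log2 fold change of 0.71 (SE 0.53), which was -0.08 without heterozygous replicate 2 and -0.68 with the year as a factor. KRT222, KRT18 and KRT85-like LOC129346421 had values of -1.40 (SE 1.16), -0.49 (SE 0.43) and 1.04 (SE 0.94). No Hypome 1 library had more than 24 counts on KRT222 or 16 on LOC129346421. For KRT10-like LOC129338405 and KRT5-like LOC129346179 the log2 fold changes were -0.15 and 0.05 (SE 1.29 for the latter), with overlapping groups.

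Heterozygous replicate 2 was the lowest of the 9 Hypome 1 libraries for 17 of the 31 tested keratins. The share of all genes that were lowest there was not computed, so no trait of keratins can be read from this count. In this library KRT19-like LOC129338574 was at 228 CPM against 1572 to 3325 CPM elsewhere in Hypome 1, KRT12-like LOC129338353 at 143 against 774 to 1275 CPM, and KRT73-like LOC129346414 at 27.95 against 142 to 389 CPM. Other abundant genes were close to the rest there: KRT4-like LOC129346183 was at 2013 CPM against 2052 to 2477 CPM, and KRT6A-like LOC129346176 at 2975 against 2447 to 3057 CPM. The low values were thus not shared by all keratins. It was the highest library for 3 keratins, KRT14-like LOC129338394, KRT12-like LOC129338354 and KRT19-like LOC129338648. Its epithelial marker sum was the lowest, as given above, and the part of epithelial content in these values was not tested.

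The Hypome 3 heterozygous libraries split in a similar way, with replicates 1 and 2, from the first year, on one side and replicate 3, from the third, on the other. Of 29 keratins with at least 10 counts in one of them, 21 were highest in replicate 3 on the TPM scale and 6 were lowest there. The matching shares of all genes were not computed. KRT19-like LOC129338458 had 76.9, 172 and 1662 CPM, and KRT12-like LOC129338353 79.4, 151 and 1093 CPM. KRT10-like LOC129338405 had 0.189, 0.214 and 61.2 CPM (4, 4 and 1030 counts) and KRT5-like LOC129346179 0.754, 0.429 and 74.8 CPM (16, 8 and 1259 counts). Hypome 3 heterozygous replicate 3 was thus nearer to Hypome 1 homozygous replicate 3, at 89.7 and 102 CPM, than to its own group, on values scaled separately in each table.

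In the other direction, KRT14-like LOC129338394 had 121, 41.2 and 27.3 CPM and KRT17-like LOC129340690, named after a keratin of wounds and hair follicles, 29.2, 26.9 and 6.72 CPM in the Hypome 3 libraries. As a plain share of counts, the latter took 0.000678% in Hypome 1 heterozygous replicate 3 and 0.000672% in Hypome 3 replicate 3. In the other Hypome 1 libraries it took 0.000197% to 0.000562%. In the Hypome 3 libraries KRT6A-like LOC129346176 had 3060, 3238 and 3273 CPM and KRT8 116, 120 and 163 CPM, so neither had so wide a range there. The epithelial markers summed to 1423, 1368 and 1705 CPM. No other Hypome 3 group was analysed here, so these differences between embryos of 1 genotype were not tested, and year and embryo cannot be told apart in them.

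Grouped by the place of their mammalian namesakes, the 7 simple-epithelium keratins (7, 8, 18 and 19) had a median log2 fold change of 0.94 against wild-type and 0.99 against heterozygous libraries, and 6 of 7 values were above 0 in each. The 5 tested basal-layer keratins (5 and 14) had medians of 0.47 and 0.35, and the 4 tested wound keratins (6 and 17) 0.14 and 0.18. The 11 genes listed as suprabasal and mucosal keratins had medians of 0.23 and 0.64. This list is broad and holds the genes named after KRT1, KRT4, KRT10, KRT12, KRT13 and KRT24. KRT23-like LOC129338649 and KRT222 were in no group. Over all genes the medians were 0.01 and -0.00. At an unadjusted edgeR p under 0.05, 2 and 3 simple-epithelium, 1 and 1 basal, 3 and 3 suprabasal and mucosal, and 1 and 1 wound keratins were higher in the 2 comparisons. Of all genes, 4.97% and 9.70% were higher. No keratin was lower against wild-type (3.56% of all genes). Against heterozygous libraries 1 was lower (8.13% of all genes), the basal-layer KRT14-like LOC129338394. The 2 tested hair and sheath keratins had medians of -0.20 and -0.46. By type, the median was 0.47 and 0.64 over 17 type I and 0.17 and 0.32 over 13 type II genes.

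Of the proteins that anchor keratin filaments, 13 genes were tested. Against wild-type, 4 were higher and 0 lower at an unadjusted edgeR p under 0.05 (4.97% and 3.56% of all genes), 0 at an adjusted p under 0.05 in edgeR, and 2 were called higher by DESeq2 (2.13%). The 4 were periplakin (PPL, log2 fold change 0.62, SE 0.21), dystonin (DST, 0.35, SE 0.14), the desmosomal plaque protein PKP1 (0.53, SE 0.23) and epiplakin (EPPK1, 0.97, SE 0.40). Against heterozygous libraries 6 were higher, PPL (0.79), EPPK1 (1.43), PKP1 (0.65), desmoplakin (DSP, 0.59), plakoglobin (JUP, 0.57) and the hemidesmosomal integrin ITGB4 (0.48), and PKP2 was lower (-0.69). Of all genes, 9.70% were higher and 8.13% lower at this threshold. DESeq2 called 4 of these higher, against 4.31% of all genes. EPPK1, which binds keratin networks, ranged from 54.0 to 395 CPM. The summed level of the 13 genes was 5059 CPM in heterozygous replicate 2 and 6334 to 8816 CPM in the other Hypome 1 libraries. Values against heterozygous libraries without that replicate are not given.

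Of 17 tested transcription factors and signalling genes that regulate keratin genes or epidermal maturation in mammals, 2 were higher than in wild-type libraries at an unadjusted edgeR p under 0.05 (4.97% of all genes), and none passed edgeR's adjusted threshold, while DESeq2 called 3 higher (2.13%). OVOL1, which promotes exit from the cell cycle in maturing epidermis, had a log2 fold change of 1.26 (SE 0.52). That of ELF3, an epithelial ETS factor of low level here (0.55 to 9.67 CPM), was 2.14 (SE 0.66). Against heterozygous libraries 7 were higher, among them ELF3 (2.53), OVOL1 (1.57), FOXN1 (1.35), GRHL1 (1.04), GRHL3 (0.44) and GRHL2 (0.40), against 9.70% of all genes, and DESeq2 called 3 higher, against 4.31%. The grainyhead factors GRHL1 to GRHL3 serve the epidermal barrier. The median log2 fold change over the list was 0.15 and 0.40. The summed level of the list was 1907 CPM in heterozygous replicate 2 and 2324 to 2808 CPM in the other Hypome 1 libraries. Values against heterozygous libraries without that replicate are not given.

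The epithelial markers without keratins give the scale of such differences. Their median log2 fold change was 0.12 against wild-type and 0.25 against heterozygous libraries, and their summed level was 1472 to 1611 CPM in homozygous, 1323 and 1399 CPM in wild-type, and 1363, 1008 and 1479 CPM in heterozygous libraries. At an unadjusted edgeR p under 0.05, claudin 4 (CLDN4, log2 fold change 0.46 and 0.56) and the protease inhibitor SPINT1 (0.37 and 0.35) were higher than in wild-type and heterozygous libraries, and RAB25 (0.81) than in heterozygous libraries. Claudin 7 (CLDN7, -1.24 and -1.35) was lower than in both. Of all genes, 4.97% were higher and 3.56% lower at this threshold against wild-type, and 9.70% and 8.13% against heterozygous libraries. Against wild-type libraries DESeq2 on only the groups compared called 0 of the 11 markers in either direction, against 2.13% of all genes higher and 0.532% lower. Against heterozygous libraries DESeq2 called RAB25 higher (adjusted p = 0.0266) and CLDN7 lower (adjusted p = 0.00529). Of all genes, it called 4.31% higher and 2.25% lower there. With TMM factors, homozygous sums were thus above both wild-type sums and overlapped the heterozygous ones. The factor was 0.780 in homozygous replicate 1, against 1.083 and 1.055 in the wild-type libraries. Without these factors the homozygous and wild-type sums overlap. The part of epithelial content in the keratin values was not tested.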

How the data were processed

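RNA of dorsal skin of day 40 embryos was sequenced as paired ends after a stranded poly(A) library preparation. The values used are counts per gene, which the authors deposited without normalization, in 1 table for Hypome 1 and 1 for Hypome 3. The paper states that reads were aligned to the authors' assembly with STAR 2.7.10b and that uniquely mapped pairs were counted with featureCounts (Subread 2.0.6). Whether strand was used in counting is not given in the sources used here. The tables pair each gene with coordinates and a length, another value the authors deposited, from which TPM was computed. Between 57.8% and 65.5% of Hypome 1 counts from 10 to 2000 were even, against 49.9% to 50.0% in Hypome 3. The Hypome 1 totals also exceed the reads the paper gives per gecko library. The Hypome 1 counts thus cannot all be 1 per pair, and how they were made is not known. Counts were used as deposited.

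Of 22064 genes, all 36 keratin identifiers matched a RefSeq gene table as protein coding. NEB, broken over 5 lines, was left out, and 3 columns of the Hypome 3 table whose names match no label were not used. Hypome 2 and homozygous Hypome 3 samples were not analysed here.

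In R 4.3.3, edgeR 4.0.16 kept 16751 genes (minimum count 10, minimum total 15). The 9 Hypome 1 libraries entered 1 quasi-likelihood fit with TMM factors, 2-sided tests and Benjamini-Hochberg adjustment over all genes tested, at 0.05. DESeq2 1.42.0, on only the groups compared or on all 9 libraries, is the alternative; adjusted p it left undefined stayed out of counts. Exact permutation tests were 2-sided, on log2(CPM + 0.1). The fit was tested on simulated data. Other alternatives were size factors, filters, halved counts, TMM without keratins, integrity or year as a covariate, a replicate block and each library left out.

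Named keratins are the 12 of highest mean TPM, all called by edgeR or by DESeq2 on the groups compared, and the 5 of smallest edgeR p in each comparison; list genes are named only where an unadjusted p was under 0.05, and the values of 1 such gene are not reported here. Members and lists were chosen with earlier results of these data known. Year and RNA integrity were joined by replicate number, which the sources do not let one check.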

Additional observations from a re-analysis of the deposited data

Results flagged for a closer look

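KRT4-like LOC129346183, the third most abundant keratin gene, was at 2052 CPM in homozygous replicate 1 and at 2446, 2452 and 2477 CPM in the other 3 homozygous libraries. The gap to the nearest value was 0.926 of the group's range, above the critical value of Dixon's outlier test for 4 samples, which chance exceeds in about 1 in 20 groups. In TPM the values were 1761 against 2633 to 3266. Wild-type libraries had 2242 and 2266 CPM.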

How the results depend on the processing

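Of 671 values of 25 named results under the alternatives, 555 kept their direction and side of the threshold, 113 passed it in addition and 3 turned direction. Since no named keratin passed edgeR's threshold as reported, none could lose it. These 3 were KRT14-like LOC129338394 between heterozygous and wild-type libraries, which was 0.71 as reported, -0.68 with the year as a factor and -0.08 without heterozygous replicate 2, both in edgeR (-0.075) and in DESeq2 on the groups compared (-0.083). With a library left out it ran from -0.083 to 1.04. Keratins called between homozygous and wild-type libraries were 0 in edgeR, 7 in DESeq2 on the groups compared (2 to 8 with a library left out) and 4 in DESeq2 on all 9. Between homozygous and heterozygous libraries they were 0 (1 without homozygous replicate 3), 8 (6 to 10) and 8, and between heterozygous and wild-type libraries 0 throughout.

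Over all genes, edgeR called 3 between homozygous and wild-type libraries (0 to 14 with a library left out, 1 without the 2 libraries of lowest integrity), DESeq2 426 on the groups compared (98 to 823) and 214 on all 9. Between homozygous and heterozygous libraries edgeR called 6 (2 to 274; 2 with integrity as a covariate or without its 2 lowest libraries, 3 on only the groups compared, 16 with no filter, 0 with the year), DESeq2 1039 (510 to 1523) and 1135. Between heterozygous and wild-type libraries edgeR called 0 (up to 3) and DESeq2 on the groups compared 2 (2 to 75).

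Replicate numbers are shared between groups, and correlations of same-numbered libraries, after subtraction of group means, ran from -0.22 to 0.16. Differently numbered libraries were not correlated, so whether same-numbered ones share more than a number was not tested. With the replicate block 0 keratins and 0 genes were called in all 3 comparisons. The differences in keratin share ran from 0.0292 to 0.505 points against wild-type and from 0.202 to 0.915 against heterozygous libraries with a library left out, and were 0.115 and 0.455 points as shares of TPM.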

Other observations

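Of 15 other intermediate filament genes, 13 were tested. At an unadjusted edgeR p under 0.05, 1 was higher and 1 lower against wild-type libraries (4.97% and 3.56% of all genes). Against heterozygous libraries 2 were higher and 1 lower (9.70% and 8.13% of all genes). At an adjusted p edgeR called 1 lower there, against 0.0119% of all genes. Nestin (NES), a filament gene of progenitor cells and nerve, was lower in homozygous libraries, with a log2 fold change of -1.19 against heterozygous (SE 0.15, edgeR adjusted p = 0.0456) and -0.75 against wild-type libraries (SE 0.17, edgeR adjusted p = 0.337, DESeq2 adjusted p = 0.0156). It ranged from 21.9 to 71.4 CPM and its homozygous values lay below all others. With the collection year as a factor, or with the replicate block, edgeR called no gene between homozygous and heterozygous libraries, NES included. The neurofilament gene NEFM, at 0.201 to 6.40 CPM, was higher by 2.25 (SE 0.82) and 2.00 (SE 0.68) on the log2 scale, with DESeq2 adjusted p of 0.0239 and 0.0337. The nuclear lamin gene LMNA was 0.56 higher than in heterozygous libraries (SE 0.22, edgeR adjusted p = 0.221).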
